A study of Mus musculus with 2 samples.

Results

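The replication-dependent histone genes described here are the 67 genes, of 33083 in the count tables, whose symbols match H1f1 to H1f6 or H2ac, H2bc, H3c or H4c followed by a number. The rule uses symbols and no measured value, but it was set with earlier results of these data known. The 67 genes hold 6 linker histone H1 genes, 18 H2A, 18 H2B, 12 H3 and 13 H4 genes. Core histones H2A, H2B, H3 and H4 form the particle around which DNA is wrapped, and H1 binds the DNA where it enters and leaves that particle. Most of their mRNAs are made in S phase, when new DNA needs new histones, and end in a conserved stem-loop, bound by the protein SLBP, in place of a poly(A) tail. A subset, with H1f2, H2bc4 and H2bc21 among them, is also known to give polyadenylated transcripts in differentiated cells. In the colon, cells divide in the crypts and leave the cycle as they move towards the surface, so these genes are known as marks of the crypt's dividing cells.

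Colon was taken from transgenic Alzheimer's disease (AD) model mice of the APP/PS1-21 line, whose transgenes are driven by the neuronal Thy1 promoter, and from wild-type (WT) mice. Each genotype has 1 droplet library, in which the 3′ end of each captured transcript is tagged with a cell barcode and a molecular identifier (UMI). Per the labels' protocol the tissue was digested with trypsin and DNase I, and the series text names colonic epithelium. Age, sex and the number of animals per library are not given in the sources used here, no agent was given to either group as far as the labels say, and genotype and library cannot be told apart.

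The AD library held 6675 barcodes with 38731915 UMIs and the WT library 4146 barcodes with 26898149 UMIs, and 7 barcodes were shared. Barcodes in which over 25% of UMIs came from mitochondrial genes made up 29.2% of the AD library and 60.4% of the WT library; setting them aside, with those under 500 UMIs or 200 genes, left 4691 AD and 1550 WT cells. Levels are UMIs of a gene or group summed over cells, per 1000000 UMIs of all genes that are not mitochondrial (nuclear UMIs), written CPM, with exact 95% Poisson intervals. Such intervals, and those of ratios and shares, cover counting error only, and no difference below has a replicate check or a p-value. Epithelial-like cells, 1300 in AD and 498 in WT, had UMIs of 11 of 12 epithelial markers in each library, at 15376 CPM in AD and 15244 in WT, while the leukocyte gene Ptprc stood at 5.88 and 6.34 CPM. Plasma cell markers, immunoglobulin genes among them, had UMIs of 9 of 10 genes in the same epithelial-like cells, at 3478 CPM in AD and 1013 in WT, and the part of that RNA in the results below was not tested.

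All 67 genes were matched to the GENCODE M21 annotation (mm10). They lie mostly on chromosome 13, with 23 members between chr13:21715763-22043676 and 31 between chr13:23531050-23934851, and 10 lie at chr3:96219865-96270132. A 16-base stem-loop was found in the annotated transcripts of 46 members. These sequences are printed because a library that captures 3′ ends by their poly(A) tail sees a transcript that ends at its stem-loop differently from one that runs on to a polyadenylation signal. Capitals mark the stem-loop, or the signal AATAAA near an annotated end, in the sense strand, 5′ to 3′, from the GENCODE M21 transcripts.

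H1f2 stem-loop: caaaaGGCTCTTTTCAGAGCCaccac
H2ac8 stem-loop: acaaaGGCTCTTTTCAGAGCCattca
H4c4 stem-loop: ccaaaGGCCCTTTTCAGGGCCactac
H3c3 stem-loop: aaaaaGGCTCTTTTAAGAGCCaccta
H3c8 stem-loop: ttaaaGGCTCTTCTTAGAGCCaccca
H1f2 annotated end: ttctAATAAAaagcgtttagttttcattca
H2ac8 annotated end: ccAATAAAtgggtcaatttttttcagattc
H2bc21 annotated end: ttattattAATAAAgttaccgattagtttc

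The core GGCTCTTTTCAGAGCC was shared by 26 members, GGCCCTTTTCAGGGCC by 7 and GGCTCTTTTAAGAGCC by 6. H1f2, H2ac8 and 21 further members have a transcript annotated more than 100 bases past the stem-loop, 108 to 4884 bases past it, and 12 of these 23 extended members have a polyadenylation signal within the last 40 bases. Another 23, H3c3 and H3c8 among them, end 3 to 74 bases past it, and 2 of these have a signal. No stem-loop was found in 4 long transcripts, those of H2bc4, H2bc21, H2bc23 and H2bc24, and in 17 short ones that are mostly bare coding sequences. These groups describe the annotation, and which end was captured in these libraries was not measured.

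A pair of genes held most of the signal, H2bc4 (chr13:23684199-23692908), which encodes a core histone H2B, and H1f2 (chr13:23738808-23740367), which encodes linker histone H1.2. Over all kept cells the 67 members had 18526 UMIs in AD and 10570 in WT, and H2bc4 and H1f2 together made up 71.8% of them in AD and 61.2% in WT. H2bc4 alone had 8851 UMIs in AD and 4937 in WT, and H1f2 had 4446 in AD and 1533 in WT. Shared among the other 65 members were 5229 UMIs in AD and 4100 in WT, with a median of 46 and 43 UMIs a gene and at most 559 and 300. No UMI was seen in either library for 7 members, H2ac18, H2ac19, H2ac25, H2bc1 (a testis H2B), H2bc18, H3c13 and H4c2. Because these 2 genes hold most of the sum of all members, the other 65 are given separately throughout, a choice made after the counts were seen.

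Some members cannot be separated with certainty. H4c17 and H4c18 share 89.8% and 85.6% of their 50-base stretches with another member, and H2bc11 59.4%. H2bc6 overlaps H1f4 on the same strand over 496 bases. Reads could be split between such copies or left uncounted. Among members without a UMI, the shared part was 100% for H2ac19, 89.2% for H2ac18 and 79.7% for H3c13. On the same strand, H2ac25 overlaps Trim17 over 2146 bases and H2bc18 overlaps Gm42743 over 381. The lack of UMIs for these members need not mean that they are not expressed. H3c14 lies within a longer gene model of the same strand. Whether the authors' counting used strand is not given in the sources used here.

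In epithelial-like cells the replication-dependent histones other than H2bc4 and H1f2 stood at about a 3-fold lower level in the AD library. The other 65 members had 145.5 CPM in AD (139.5 to 151.7) and 475.7 in WT (459.8 to 492.1), a ratio of 0.306 (0.290 to 0.323). H2bc4 stood at 418 CPM in AD and 636 in WT, a ratio of 0.657 (0.633 to 0.683). H1f2 went the other way by a small margin, with 196.9 CPM in AD and 181.0 in WT, a ratio of 1.09 (1.02 to 1.16). All 67 together stood at 760.4 CPM in AD and 1293 in WT, a ratio of 0.588, between those of H2bc4 and of the other 65 members.

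Of the 67 members, 50 had at least 20 UMIs over both libraries in these cells. At least 2-fold lower in AD were 45 of the 50, against 6.56% of all 14199 genes with as many UMIs, and none was at least 2-fold higher, against 3.32% of all genes. The median log2 ratio was -1.97 over the 50 members and -0.08 over all genes. These counts describe 1 library against another. A limit of 10% mitochondrial UMIs left 19 members with enough UMIs, 12 of them at least 2-fold lower, against 8.02% of all genes at that limit. At least 3-fold lower were 29 of the 50, against 2.24% of all genes.

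**Figure D1:**
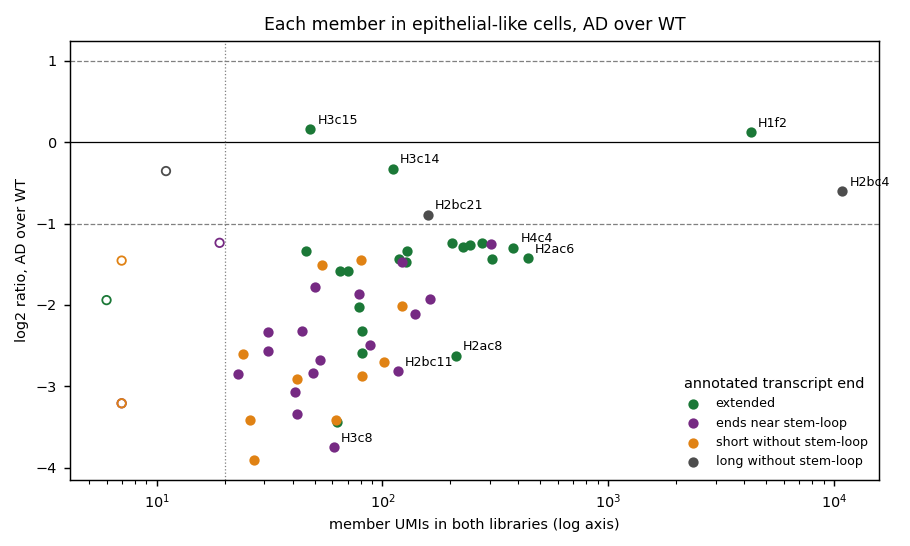
Each point is a member in epithelial-like cells, placed by its UMIs in both libraries (log axis) and its log2 ratio of AD over WT, and coloured by its annotated transcript end; open points have under 20 UMIs, the dotted line marks 20 UMIs and dashed lines mark 2-fold. Members with 0 UMIs in a library have no point. H2bc4 and H1f2 lie far to the right and within 2-fold, H2bc4 below 0 (-0.61) and H1f2 near 0 (0.12), while 45 of the 50 filled points lie below the lower dashed line.

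Counts must be read against the nuclear UMIs of these cells, 15142634 in AD and 7100413 in WT. Among the linker histones, H1f4 had 115 UMIs in AD and 130 in WT, a log2 ratio of -1.27. H1f3 had 97 UMIs in AD and 107 in WT (log2 ratio -1.23). H1f5, a linker histone known from dividing cells, had 25 UMIs in AD and 77 in WT (-2.70), and H1f1 had 18 in AD and 63 in WT (-2.87). H1f2 thus stood apart from these 4 linker genes, each of which was over 2-fold lower in AD. H1f6, the testis linker histone, had 2 UMIs in AD and 4 in WT.

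Of the H2A genes H2ac6 had the most UMIs, 194 in AD and 245 in WT, or 12.8 and 34.5 CPM (log2 ratio -1.43). H2ac8 had 54 UMIs in AD and 157 in WT, or 3.57 and 22.1 CPM, a log2 ratio of -2.62. H2ac15 had 10 UMIs in AD and 52 in WT (-3.41). The 18 H2A genes together stood at 24.6 CPM in AD and 95.1 in WT, a ratio of 0.259 (0.228 to 0.294).

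Among the H2B genes other than H2bc4, H2bc6 had 106 UMIs in AD and 121 in WT (log2 ratio -1.28) and H2bc11 had 27 in AD and 90 in WT (-2.81). H2bc21, with 85 UMIs in AD and 74 in WT, or 5.61 and 10.4 CPM, had a log2 ratio of -0.89 and so missed the 2-fold mark. H2bc8 had 21 UMIs in AD and 60 in WT (-2.59), H2bc9 24 and 57 (-2.32) and H2bc3 13 and 40 (-2.68). H2bc13 had the lowest log2 ratio of the 50, -3.90, from 3 UMIs in AD and 24 in WT. The 17 H2B genes stood at 23.9 CPM in AD and 85.8 in WT, a ratio of 0.279 (0.244 to 0.318).

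The H3 genes encode nearly the same protein, yet their ratios spread widely. H3c8 had 8 UMIs in AD and 53 in WT (log2 ratio -3.75) and H3c7 had 10 in AD and 53 in WT (-3.44). H3c6, H3c1 and H3c4 were alike, with 55 UMIs in AD and 72 in WT for H3c6 (-1.48). H3c3 had 24 in AD and 64 in WT (-2.49), and H3c11 42 and 80 (-2.01). H3c14 had 70 UMIs in AD and 41 in WT, and its ratio of 0.797 (0.537 to 1.21, with 0.5 counts added) has an interval that includes 1. H3c15 had 34 UMIs in AD and 14 in WT, at a ratio of 1.12 (0.595 to 2.30). H3c14 and H3c15 are both extended members on chromosome 3. The 12 H3 genes together had a ratio of 0.294 (0.257 to 0.336).

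The H4 genes, which encode the same protein, held 847 of the 2203 UMIs of the other 65 members in AD and 1133 of 3378 in WT. H4c4 had 176 UMIs in AD and 203 in WT (log2 ratio -1.30), H4c8 had 143 and 160 (-1.25), H4c3 had 134 and 170 (-1.43) and H4c9 had 131 and 145 (-1.24). H4c17 and H4c18, near copies of other members, were lower still, with 58 UMIs in AD and 104 in WT for H4c17 (-1.93) and 46 and 94 for H4c18 (-2.12). H4c16, on chromosome 6, had 59 in AD and 70 in WT (-1.34). The family's ratio was 0.351 (0.320 to 0.384), and this interval does not overlap that of H2A.

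Members grouped by annotated end differed more than the families did. Extended members, without H1f2, had a ratio of AD over WT of 0.360 (0.336 to 0.386), members that end near the stem-loop 0.236 (0.212 to 0.264), and short models without a stem-loop 0.187 (0.156 to 0.222). The 3 long models other than H2bc4 had 0.559 (0.409 to 0.765), from 93 UMIs in AD and 78 in WT, nearly all of H2bc21. Extended members made up 65.3% of the UMIs of the other 65 in AD (63.2 to 67.3) and 55.4% in WT (53.7 to 57.1). By position, the 10 members on chromosome 3 had a ratio of 0.529 (0.439 to 0.637), from 248 UMIs in AD and 220 in WT that are mostly those of H2bc21, H3c14 and H3c15. The block of chromosome 13 at lower positions had a ratio of 0.241 (0.216 to 0.268) and the block at higher positions, without H2bc4 and H1f2, 0.309 (0.288 to 0.331).

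Genes that act with the members were counted in the same contrast from lists, which were chosen with earlier results of these data known. Of 30 S-phase genes, 17 of the 29 with enough UMIs were at least 2-fold lower in AD, and of 30 mitosis genes 27 of 29. The S-phase list stood at 456 CPM in AD and 870 in WT, and the mitosis list at 507 in AD and 1357 in WT. These and the next counts are to be read against the 6.56% of all genes that were as much lower. Of 13 genes that process histone mRNA none was 2-fold lower, which is near that share: Slbp, which binds the stem-loop, had 26.8 CPM in AD and 38.2 in WT (log2 ratio -0.51), and Npat, which switches these genes on in S phase, 24.7 and 23.5 (0.07). Of 14 histone chaperones and assembly factors with enough UMIs, 2 were lower, also not far from that share, Asf1b with 52 UMIs in AD and 97 in WT (-1.99) and Chaf1b with 42 and 65 (-1.72), both known to carry new H3 and H4 to replicating DNA. Replacement histones, most of which are also made outside S phase, included 4 of 10 that were lower. These were Cenpa, the centromeric H3 (log2 ratio -1.92), H2az1 (-1.09), H2ax (-1.06) and H1f10, with 20 UMIs in AD and 38 in WT. The replacement histones with the most UMIs, the H3.3 genes H3f3b (-0.10) and H3f3a (-0.34), stayed within 2-fold.

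The shares of cells gave the same order. At least 1 UMI of the other 65 members was seen in 58.6% of AD epithelial-like cells (55.9 to 61.3, Clopper-Pearson) and in 79.7% of WT cells (75.9 to 83.2), at median depths of 9722 and 10296 nuclear UMIs. With each cell thinned to 1000 nuclear UMIs, leaving out 52 AD and 46 WT cells, the shares were 14.1% in AD and 31.4% in WT. Fibroblast-like cells, most of which do not divide in the adult colon, gave 7.94% in AD and 8.78% in WT when thinned alike, and 21.3% in each library before thinning at median depths of 2993 and 3625. Cells with UMIs of at least 5 different members of the 65 were 78 of 1300 in AD (6.0%) and 149 of 498 in WT (29.9%). These shares depend on the depth of each cell and were not thinned to a like depth. The top 1% of epithelial-like cells held 12.8% of the UMIs of the other 65 members in AD and 13.5% in WT.

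The difference was in every larger epithelial group, though to a different extent. Colonocyte-like clusters, with 342 AD and 136 WT cells, had 113 CPM of the other 65 members in AD and 210.1 in WT, a ratio of 0.536 (0.468 to 0.614). Goblet-like clusters, with 380 AD and 92 WT cells, had 131 in AD and 366 in WT (0.358, 0.320 to 0.400). Enteroendocrine-like clusters had 232 in AD and 668 in WT (0.347, 0.284 to 0.423). Epithelial-like clusters of no such type, with 498 AD and 195 WT cells, had 169 in AD and 668 in WT (0.253, 0.234 to 0.274). Only 3 AD and 14 WT cells were tuft-like, with 14 and 77 UMIs of the 65 members, or 1229 CPM in AD (672 to 2061) and 1568 in WT (1237 to 1959).

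Outside the epithelium the levels of the other 65 members differed less, and in plasma-like cells they were higher in AD. Plasma-like cells had 307 CPM in AD, from 926 cells, and 229 in WT, from 48 cells, a ratio of 1.34 (1.09 to 1.66). Of 30 members with enough UMIs there, 11 were at least 2-fold higher in AD, against 14.1% of all genes, and 1, H1f4 with 66 UMIs in AD and 10 in WT, was lower (7.7% of all genes). Each of the 11 rests on 0 or 1 UMI in the WT group, so no fold is given for them. With 926 AD and 48 WT cells, a member reaches 20 UMIs mostly through AD. A member with 20 UMIs in AD and 0 in WT is then called higher by the rule alone. The count of 11 is therefore not read as a result about the members. H4c9 was the member with the most plasma-like UMIs after H2bc4 and H1f2, 368 in AD and 17 in WT, or 53.9 and 41.0 CPM.

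Lymphocyte-like cells had 221 CPM of the other 65 in AD and 342 in WT, a ratio of 0.646 (0.539 to 0.773), and 5 of 10 members were at least 2-fold lower there, against 3.41% of all genes. These were H4c4 with 22 UMIs in AD and 38 in WT, H4c3 with 11 and 29, H3c1, H4c9 and H4c17. None of the 10 was 2-fold higher (7.94% of all genes). For B-like cells the values were 159 in AD and 169 in WT (0.939, 0.716 to 1.24), for macrophage-like cells 159 and 129.8 (1.23, 0.851 to 1.80), and for endothelial-like cells 108 and 105. In B-like cells only H2bc4 and H1f2 had enough UMIs, and neither was past 2-fold (7.86% of all genes higher, 2.44% lower). Fibroblast-like cells had the lowest levels of the classes shown, 84.1 in AD and 97.1 in WT (0.866, 0.675 to 1.12). Of 6 members with enough UMIs there none was 2-fold higher (4.76% of all genes) and H4c4 was lower (2.54%), with 11 UMIs in AD and 16 in WT. H2bc4 was most abundant in epithelial-like cells in both libraries and under 100 CPM in the B-like, lymphocyte-like, macrophage-like and fibroblast-like cells of each.

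**Figure D2:**
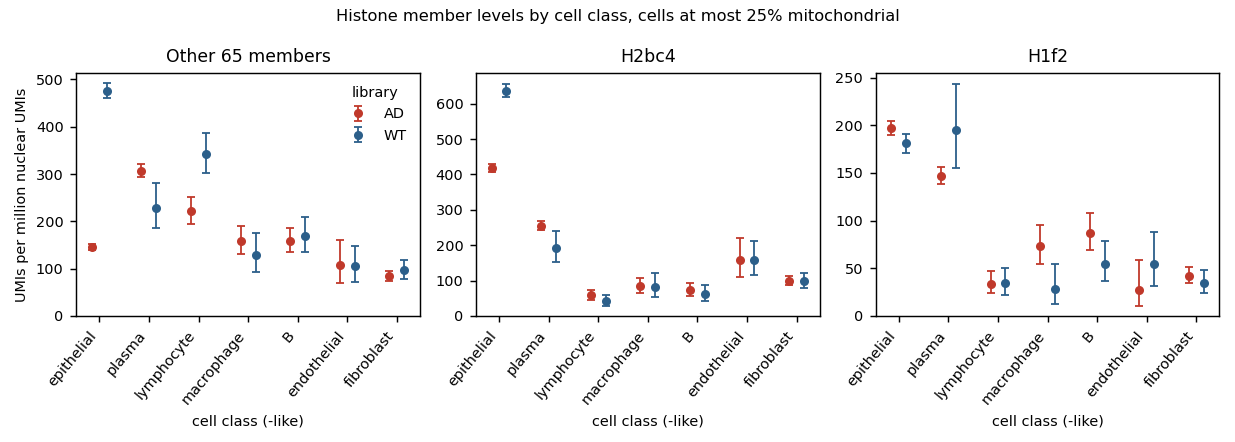
Levels (CPM, UMIs per 1000000 nuclear UMIs) of the other 65 members, H2bc4 and H1f2 in 7 classes of cells, with exact 95% Poisson intervals that cover counting error only; AD is left of WT in each class. The other 65 members stand at 145.5 in AD and 475.7 in WT epithelial-like cells, and the fibroblast-like cells are lowest in each library.

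Over all kept cells, classes together, the other 65 members stood at 183.0 CPM in AD and 381.1 in WT, a ratio of 0.480, and 33 of 52 members were at least 2-fold lower in AD (6.51% of all genes) with none higher (4.31%). That comparison mixes classes that differ in number between the libraries. Under a limit of 10% mitochondrial UMIs it was 0.877 for the other 65 and 1.01 for all 67.

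Dividing cells were marked from 30 S-phase and 30 mitosis genes, none of them a member: at least 3 different list genes and at least 5 list UMIs per 10000 nuclear UMIs. This took 529 AD epithelial-like cells (40.7%) and 268 WT cells (53.8%), with 286 AD and 63 WT cells between 4 and 6 list UMIs per 10000, near the limit. Median depth was 12708 nuclear UMIs in dividing and 8331 in non-dividing AD cells, and 17292 and 4470 in WT. The other 65 members stood at 173 CPM in dividing and 118 in non-dividing AD cells, a ratio of 1.47 (1.35 to 1.60). In WT they stood at 547 in dividing and 304 in non-dividing cells, a ratio of 1.80, which turned to 0.932 under a limit of 10% mitochondrial UMIs. For all 67 members the ratio was 0.836 in AD and 1.33 in WT, since H2bc4 and H1f2, which outweigh the rest, were lower in the dividing cells of AD.

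Single members showed the same spread. In AD 8 of 33 members were at least 2-fold higher in dividing cells, against 8.23% of all genes, and in WT 23 of 47, against 11.6%. Lower by as much were 1 member in AD (3.73% of all genes) and none in WT (7.35%). H2ac8 had 39 UMIs in dividing and 15 in non-dividing AD cells, and 146 and 11 in WT. H4c3 had 59 UMIs in dividing and 75 in non-dividing AD cells (log2 ratio -0.32), and 115 and 55 in WT (-0.21), and the intervals of both ratios include 1. H3c15 was the member 2-fold lower in dividing AD cells, with 11 UMIs there and 23 in non-dividing cells.

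A graded rate separated the states more sharply and was added after the data were seen. List UMIs per 10000 nuclear UMIs were divided into 5 bins, from under 5 to 40 and over. In AD the level of the other 65 was 109.5, 120.7, 223, 265 and 380.4 CPM from the lowest to the highest bin. In WT they stood at 233, 254, 347.5, 469 and 1154. Levels were thus close to flat below a rate of 10, and the last step in WT was the steepest of the series. The highest bin held 53 AD and 89 WT cells, at median depths of 10020 and 10782 nuclear UMIs.

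**Figure D3:**
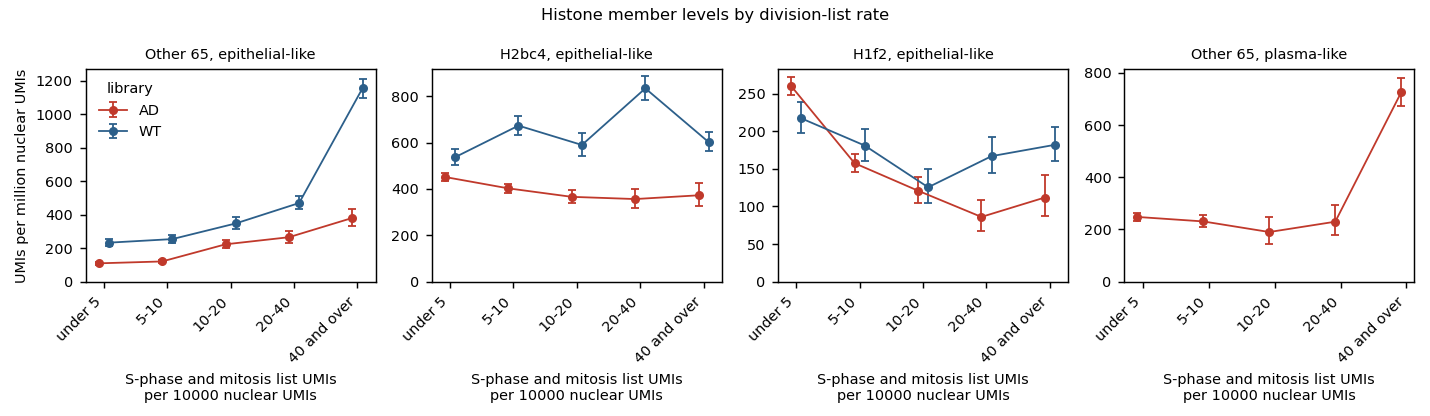
Levels (CPM, UMIs per 1000000 nuclear UMIs, exact 95% Poisson intervals) in 5 bins of S-phase and mitosis list UMIs per 10000 nuclear UMIs, for the other 65 members, H2bc4 and H1f2 in epithelial-like cells of AD and WT and for the other 65 in AD plasma-like cells. Levels of the other 65 climb to 380.4 in AD and 1154 in WT in the highest bin, whereas H2bc4 and H1f2 do not follow the rate.

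At a rate of 40 and over against under 5, the other 65 members had a ratio of 3.47 in AD (2.99 to 4.02) and 4.96 in WT (4.47 to 5.51). H2bc4 had 372 CPM at the high and 451 at the low rate in AD (0.825, 0.719 to 0.943), and 601 and 537 in WT (1.12, 1.02 to 1.23). H1f2 was lower at the high rate, 112 against 260.0 in AD (0.430, 0.334 to 0.546) and 182 against 217 in WT (0.838, 0.715 to 0.981). In epithelial-like cells the pair with most of the UMIs thus did not share the pattern of the other 65.

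In WT 34 of 40 members were at least 2-fold higher at the high rate, against 16.7% of all genes, and 1 was lower, H3c14, with 4 UMIs at the high and 16 at the low rate (11.3% of all genes lower). In AD 13 of 21 were higher, against 18% of all genes, and 2 were lower, H1f2 and H3c14 (9.69%). A member can have enough UMIs to enter these counts through the high-rate cells alone, so the counts can be set in part by that limit. H2ac8 had a wide gap in both libraries, with 18 UMIs at the high and 14 at the low rate in AD, a log2 ratio of 3.89, and 103 and 9 in WT, a log2 ratio of 3.93. Several members had no UMI at all in the 177 WT cells of the low rate. H1f5 had 62 UMIs at the high and 0 at the low rate in WT, H3c8 40 and 0, H3c2 30 and 0, and H2ac4 21 and 0. H3c3, with its stem-loop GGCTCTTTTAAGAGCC and an annotated end 74 bases past it, had 46 and 1.

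Several members with more UMIs had smaller ratios. H2ac6 had 81 UMIs at the high and 49 at the low rate in WT (log2 ratio 1.21), H4c8 had 51 and 40 (0.83) and H1f3 35 and 27 (0.86). For H4c8 in AD the log2 ratio was -0.14, from 4 UMIs at the high and 57 at the low rate. By annotated end, the ratio in WT was 3.80 for extended members (3.32 to 4.36), 6.89 for members that end near the stem-loop (5.59 to 8.56) and 8.44 for short models (6.20 to 11.7). In AD the values were 2.73 (2.25 to 3.29), 5.61 (4.14 to 7.55) and 6.06 (3.58 to 10.03). The families were not in the same order in both libraries. H3 had a ratio of 3.30 in AD (2.26 to 4.72) and 8.89 in WT (6.62 to 12.2), H2A 6.41 in AD (4.59 to 8.86) and 5.89 in WT (4.63 to 7.56), and H4 2.25 in AD (1.71 to 2.93) and 3.30 in WT (2.78 to 3.92).

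Cells with the same list rate still differed between the libraries. At a rate of 40 and over the other 65 members stood at 380.4 CPM in AD and 1154 in WT, a ratio of 0.330, while the S-phase list stood at 2151 in AD and 2124 in WT and the mitosis list at 5017 in AD and 4360.3 in WT. Under a rate of 5 the members stood at 109.5 in AD and 233 in WT, a ratio of 0.470. With the earlier mark the ratio of AD over WT was 0.317 (0.296 to 0.339) in dividing and 0.388 in non-dividing cells. In dividing cells 43 of 49 members were at least 2-fold lower in AD, against 4.53% of all genes, and none higher (3.52%). In non-dividing cells 17 of 25 were lower (6.94%) and 1 was higher (3.23%), H3c15, with 23 UMIs in AD and 1 in WT. Malat1, an RNA kept in the nucleus, was also lower in AD in both bins, though unlike the members it was lower at the high rate than at the low: at a rate of 40 and over it stood at 4675 CPM in AD and 7780.2 in WT, and under 5 at 7247 and 12103. Its part in the difference was not tested.

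Plasma-like cells of the AD library gave a second set of dividing cells. At a rate of 40 and over, 78 cells had 725 CPM of the other 65 members, against 248 in 545 cells under a rate of 5, a ratio of 2.93 (2.65 to 3.23). There 18 of 28 members were at least 2-fold higher, against 15.1% of all genes, and none lower (4.41%). A member can reach 20 UMIs through the high-rate cells, so the count of 18 can be set in part by that limit. H2ac8 had 79 UMIs at the high and 22 at the low rate (log2 ratio 3.78), H3c3 had 22 and 2 (5.13) and H1f5 20 and 5 (3.86). H4c3 stood at 13.7 CPM at the high and 27.2 at the low rate (-0.95). H2bc4 differed here from its pattern in the epithelium, with 421 CPM at the high and 222 at the low rate (1.90, 1.68 to 2.14). In lymphocyte-like AD cells it had 12 UMIs at the high and 14 at the low rate (5.94, 2.51 to 13.8). In WT, 8 plasma-like cells at the high rate had 520.1 CPM and 24 at the low rate had 142 (3.68, 2.20 to 6.16). Lymphocyte-like cells at the high rate, 12 in AD and 2 in WT, had 538 and 919.8 CPM, against 216 in AD and 313 in WT under a rate of 5.

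Levels also differed by the share of mitochondrial UMIs, in AD by more than they did by list rate and in WT by about as much. In epithelial-like barcodes the other 65 members stood at 122, 156.5, 612 and 1527 CPM in AD in the bands of 0 to 10, 10 to 25, 25 to 50 and over 50% mitochondrial UMIs. In WT they stood at 335, 507, 1135 and 1633. Over 50% against 0 to 10% the ratio was 12.5 in AD (11.3 to 13.9) and 4.87 in WT (4.40 to 5.40). The bands held 365, 935, 676 and 234 barcodes in AD and 98, 400, 1188 and 728 in WT. Since mitochondrial UMIs are left out of the denominator, their own rise does not enter these levels; with all UMIs as the denominator the ratios were 5.37 in AD and 2.02 in WT.

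The AD and WT levels were far apart in the lower bands, 122 in AD against 335 in WT at 0 to 10%, and close over 50%, where AD had 1527 (1429 to 1630) and WT 1633 (1575 to 1693). Cells at a rate of 40 and over crossed: in AD they stood at 321, 417.5, 3280.1 and 4878 CPM from the lowest to the highest band, in WT at 692, 1227, 2612 and 3953. These rest on 16, 37, 46 and 28 barcodes in AD and 8, 81, 161 and 43 in WT. Cells under a rate of 5 kept their order, at 97.4, 114, 357 and 866.5 in AD and 281, 222, 712 and 1485 in WT. Their median depth over 50% was 2420.5 nuclear UMIs in AD and 2061 in WT, against 9535 and 6989 at up to 25%. At the lower depth a rate rests on few list UMIs, so a bin need not hold the same state in each band.

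**Figure D4:**
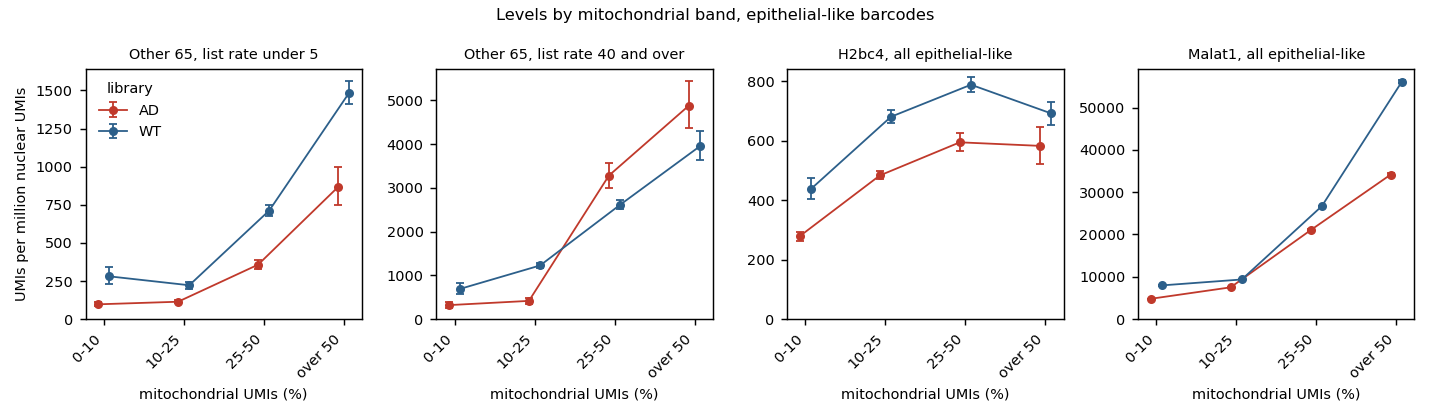
Levels (CPM, UMIs per 1000000 nuclear UMIs, exact 95% Poisson intervals) by mitochondrial band in epithelial-like barcodes of AD and WT: the other 65 members at list rates under 5 and of 40 and over, H2bc4, and Malat1. The other 65 members and Malat1 climb with the band in both libraries, and at a rate of 40 and over AD lies above WT in the bands from 25%.

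H2bc4 and H1f2 were less tied to the band. H2bc4 stood at 279, 483, 594 and 582.5 CPM in AD and at 438, 680.3, 788 and 692 in WT. H1f2 stood at 144, 221.5, 232 and 249.6 in AD and at 163, 185, 210.0 and 423 in WT. Of the single members, 25 of 28 in AD were at least 2-fold higher over 50% than at 0 to 10%, against 25.5% of all genes, and 33 of 38 in WT, against 22.5%. Already at 25 to 50% it was 29 of 34 in AD (18.2%) and 41 of 49 in WT (17.5%). None was 2-fold lower in these comparisons, against 11.8% of all genes in AD and 18.8% in WT over 50%, and 8.47% in AD and 12.1% in WT at 25 to 50%. A member can have enough UMIs to enter these counts through the higher band alone. The counts of members, and the shares of all genes, can therefore be set in part by that limit. The summed levels by band use no such limit.

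H4 and H1 genes had high ratios in this contrast, though not each of them. H4c3 had 77 UMIs over 50% and 28 at 0 to 10% in AD, or 131 and 5.81 CPM, and 256 and 28 in WT, or 142 and 21.5 CPM. H4c18 had 38 UMIs over 50% and 10 at 0 to 10% in AD, and 137 and 6 in WT. H4c17 had 46 and 13 in AD, and 212 and 11 in WT. H4c9 was lower than these in AD, with 37 and 46 UMIs (log2 ratio 2.72), and H1f4 had 41 and 24 (3.79). As families, H4 had a ratio of 14.9 in AD (12.7 to 17.6) and 6.80 in WT (5.75 to 8.09), and H1 14.2 in AD (10.3 to 19.6) and 6.44 in WT (4.88 to 8.65). H2A had 12.7 in AD (9.81 to 16.5), an interval that overlaps those of H4 and H1, and 3.15 in WT (2.51 to 3.98). H3 had 9.41 in AD (7.07 to 12.5) and 3.61 in WT (2.73 to 4.85). H2B had 8.68 in AD (6.53 to 11.5) and 2.92 in WT (2.26 to 3.82). H2ac8 and H1f5, which had wide gaps by list rate, had small ones by band in WT: H2ac8 had 33 UMIs over 50% and 15 at 0 to 10% (log2 ratio 0.64), and H1f5 21 and 13 (0.20). In AD, H2ac8 had 18 UMIs over 50% and 21 at 0 to 10%, a log2 ratio of 2.82. H2bc21 had 3 and 24 UMIs in AD (0.23) and 10 and 12 in WT (-0.72).

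By annotated end, short models without a stem-loop had a ratio of 21.5 in AD (15.2 to 30.9) and 4.16 in WT (3.06 to 5.76), members that stop near the stem-loop 18.4 in AD and 7.54 in WT, and extended members 10.5 in AD (9.14 to 12.0) and 4.45 in WT (3.93 to 5.06). The order of these groups thus differed between the libraries. The long models other than H2bc4 had 1.09 in AD (0.279 to 3.10) and 0.620 in WT (0.262 to 1.44), from 4 UMIs over 50% and 30 at 0 to 10% in AD, and 12 and 14 in WT.

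**Figure D5:**
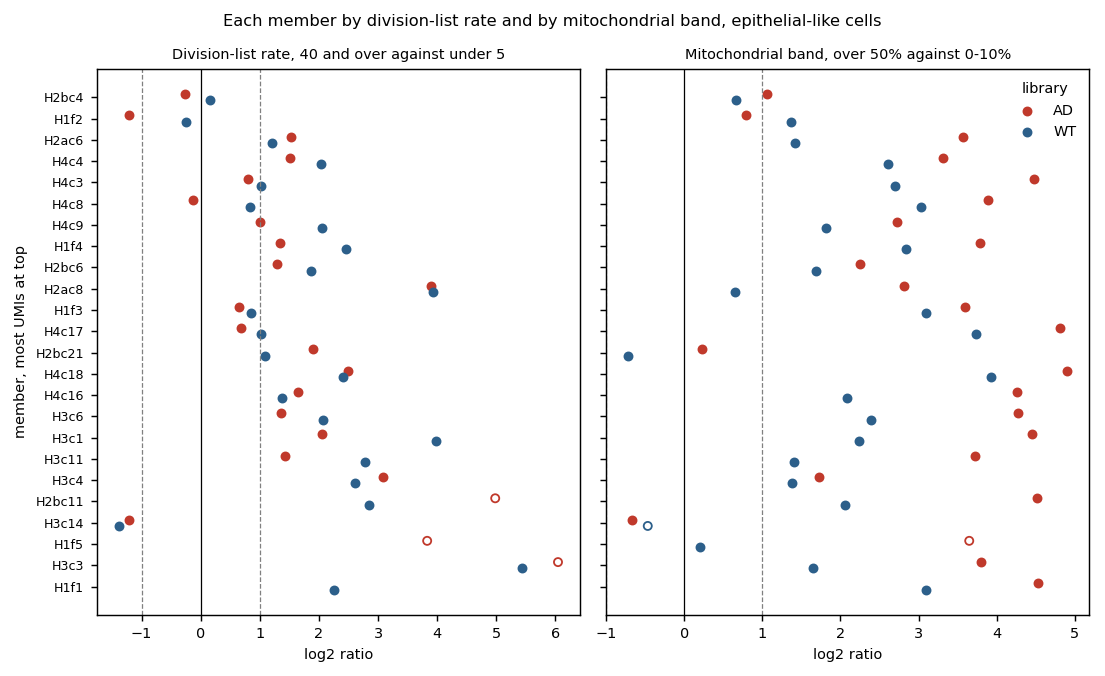
Log2 ratio of each of the 24 members with the most epithelial-like UMIs, between list rates of 40 and over and under 5 (left panel) and between barcodes over 50% and at 0 to 10% mitochondrial UMIs (right panel), AD above WT in each row; filled points have at least 20 UMIs, dashed lines mark 2-fold, and a pair with 0 UMIs on a side has no point. H2ac8 lies far right on the left panel in both libraries, and H4c17 and H4c18 lie right of most others on the right panel.

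Other RNAs were read in the same bands. Malat1 stood at 4808, 7520 and 21026 CPM in the 3 lower bands and 34144 over 50% in AD, and at 7976, 9376, 26700 and 56085 in WT. Replacement histones, whose mRNAs are mostly polyadenylated, did not climb: they stood at 2204, 2188, 2035 and 1904 in AD and at 2879, 2844, 2344 and 1862 in WT. The S-phase list stood at 529, 422, 432 and 666 in AD and at 765, 893, 753 and 404 in WT, so the WT members climbed while S-phase genes were lower over 50%. Slbp stood at 23.7, 28.3, 46.5 and 98.5 in AD and at 44.6, 36.7, 40.9 and 58.4 in WT. The part of nuclear RNA, cell damage or free RNA in the bands was not tested.

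Outside the epithelium few barcodes had high shares. Fibroblast-like barcodes had 72.4, 187 and 795 CPM of the other 65 members in AD in the bands up to 50%, and 94.7, 117 and 239 in WT, the last from 10 AD and 16 WT barcodes. Lymphocyte-like barcodes had 192.5, 317 and 649 in AD and 315, 482 and 321 in WT, the last from 26 and 42 barcodes.

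A cluster of 52 barcodes, 47 from AD and 5 from WT, had a high level, 6370.2 CPM, or 6113 in AD and 8679 in WT. It was left without a name: its median was 714 nuclear UMIs at 36.4% mitochondrial UMIs. Its 308 UMIs of the other 65 members were uneven, with 10 barcodes holding 72.7% of them and 19 barcodes holding none. H4c9 led with 34 UMIs, before H2bc11 with 31 and H4c17 with 29. Members were left out of the genes used for clustering.

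Genes with a like pattern were sought over 25 units of class, dividing state and library with at least 30 cells each, among 11200 genes. These units share libraries and cells of 1 class share RNA content, so the correlations are descriptions. The summed level of all 67 members was most like Uqcrq (r = 0.876), Cox17 (0.862) and Cycs (0.861), which serve mitochondrial respiration, and Epcam (0.808) was also among the 10 nearest. The other 65 members were most like Bola2 (0.778), Ckap2 (0.708), Ube2t (0.706), Lockd (0.668) and Asf1b (0.664). Ckap2 binds the mitotic spindle and Asf1b is an H3-H4 chaperone. Mki67, a gene of dividing cells, had an r of 0.597 with the other 65 members and 0.355 with all 67. Top2a had 0.546 with the other 65 and 0.268 with all 67. Lower values were seen for Pcna, 0.307 and -0.240, and for Mcm6, 0.202 and -0.204.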

How the data were processed

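The authors deposited UMI count matrices of genes by cell barcodes, 1 per library, and the counts were used as deposited, as raw whole numbers. The submitters' processing notes name Cell Ranger 3.0.1, STAR, Seurat 3.0.2 and the mm10 build. Their filters and parameters, and the strand setting of the counting, are not given in the sources used here.

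Barcodes with at least 500 UMIs and 200 genes were kept for clustering, and those with at most 25% mitochondrial UMIs are the cells of all comparisons other than the mitochondrial bands (0 to 10, 10 to 25, 25 to 50 and over 50%). Both libraries were clustered together with scanpy 1.11.5 and leidenalg 0.10.2 (2000 variable genes, without members or mitochondrial genes, 30 principal components, 15 neighbours, resolution 1, seed 1). Classes were named from marker lists where at least 3 markers led a cluster, each in at least 10% of its cells and 4-fold above the rest. A cluster that no list named was taken as epithelial-like from summed marker levels. Epithelial markers had to reach 6000 CPM and markers of other classes, plasma not among them, stay under 1000 CPM. Colonocyte-like clusters were among these, and so were epithelial-like clusters that no list matched. Thresholds for naming, the groups by transcript end and the bins of list rate were set after the data were seen. No doublet caller was run, and leaving out the 2% of cells with the most UMIs is given as an alternative.

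Levels were summed per library, with exact 95% Poisson, Clopper-Pearson and conditional ratio intervals (scipy 1.17.1). Log2 ratios of single genes have 0.5 counts added. A gene entered a count of 2-fold differences with at least 20 UMIs over both sides. A gene can pass this limit through the side where it is high, and this holds for members and for all genes. With 1 library per genotype no test between genotypes can be made. Cells are not replicates, so no p-value is given. Transcript ends and stem-loops were read from GENCODE M21 transcripts.

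The members and lists were chosen with earlier results of these data known. Members were to be named by most UMIs, by 2-fold differences at 50 UMIs or more, or by having none, and further members named for their spread were chosen after their values were seen. Like genes were the 10 with the highest Pearson correlation. The calculations were tested on simulated data.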

Additional observations from a re-analysis of the deposited data

Results flagged for a closer look

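Effects that went in opposite directions in 2 groups are listed here, and none of these differences was tested, since each rests on 1 library a genotype. All members together were lower in dividing than in non-dividing AD epithelial-like cells (ratio 0.836) and higher in WT (1.33). The AD direction was lost with the stricter mark of division (1.003), with the outer bins of list rate (1.05) and without H2bc4 and H1f2 (1.47). H2bc4 gave 0.856 in AD and 1.26 in WT for the same contrast. For AD over WT, all members gave 0.588 in epithelial-like cells, against 1.15 in plasma-like and 1.32 in macrophage-like cells. H2bc4 gave 0.657 in epithelial-like and 1.32 in plasma-like cells, and the other 65 members gave 0.306 and 1.34. H1f2 went the other way, with 1.09 in epithelial-like and 0.753 in plasma-like cells. Within the epithelium, H1f2 gave 0.791 in dividing and 1.23 in non-dividing cells, and 1.47 in colonocyte-like and 0.650 in goblet-like clusters.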

How the results depend on the processing

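No paired analysis was possible because each genotype has 1 library. The cause of each shift below was not tested. With mitochondrial limits of 10%, 50% and none, AD over WT for all members in all kept cells (0.660 at 25%) was 1.005, 0.540 and 0.512, the first a reversal, and in epithelial-like cells 0.521 at 50% and 0.507 with none. For dividing over non-dividing cells, all members gave 0.927, 0.877 and 0.897 in AD, and 1.02, 1.22 and 1.09 in WT. AD over WT gave 0.559, 0.452 and 0.461 in dividing and 0.616, 0.627 and 0.561 in non-dividing cells.

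For the other 65 members, the same limits gave 0.877, 0.368 and 0.352 in all kept cells, 0.364 at 10% and 0.283 at 50% in epithelial-like cells, and 0.416 at 10% in dividing cells. In non-dividing cells they gave 0.294, 0.304 and 0.270. Dividing over non-dividing gave 1.32 at 10% in AD, and 0.932, 1.56 and 1.25 in WT, the first a reversal.

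Without the 2% of cells with the most UMIs, all members gave 0.723 for AD over WT in all kept cells, and 0.791 in AD and 1.26 in WT for dividing over non-dividing cells; the other 65 gave 0.511 in all kept cells, 0.331 in non-dividing cells and 1.60 for WT dividing over non-dividing cells. Without the 1% of cells with the most member UMIs, all members gave 0.609 in epithelial-like cells, 0.786 in AD and 1.16 in WT for division, and 4.70 for the AD bands. The other 65 gave 0.508 in all kept cells, 0.333 in epithelial-like and 0.342 in dividing cells, and 1.31 in AD and 1.44 in WT for division.

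Thinned to 1000 UMIs a cell, division gave 0.973 in AD and 1.52 in WT for all members, and 2.10 and 2.83 for the other 65. AD over WT then gave 0.460 in dividing and 0.718 in non-dividing cells for all members, and 0.443 in non-dividing cells for the other 65. With 2 list genes as the limit, the other 65 gave 2.14 for division in WT and 0.433 for AD over WT in non-dividing cells. With the stricter limit (5 list genes, 20 per 10000), division reversed for all members in AD (1.003) and was 1.63 in WT, and for the other 65 it was 2.35 in AD and 3.06 in WT. AD over WT then gave 0.445 and 0.723 for all members, and 0.364 and 0.474 for the other 65, in dividing and non-dividing cells. With the outer bins of list rate, division gave 1.05 in AD, a reversal, and 1.96 in WT for all members, and 3.47 and 4.96 for the other 65. AD over WT gave 0.446 and 0.832 for all members, and 0.470 in non-dividing cells for the other 65.

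Leaving out H2bc4 and H1f2 took all members to 0.480 in all kept cells, 0.306 in epithelial-like, 0.317 in dividing and 0.388 in non-dividing cells, to 1.47 (a reversal) in AD and 1.80 in WT for division, and to 12.5 in AD and 4.87 in WT for the bands. With all UMIs as the denominator, all members gave 0.679 in all kept cells and 1.86 in AD and 1.22 in WT for the bands, and the other 65 gave 5.37 and 2.02. The count of 45 members at least 2-fold lower was 12 at the 10% limit and 29 at 3-fold. Of 89 values for all members 42 stayed within counting error, as did 46 of 81 for the other 65. Depth limits single members in the small groups, where many have under 20 UMIs.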
